A study of Mus musculus with 12 samples.

Results

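Transcripts of 7 genes that make, break down or sense extracellular ATP, adenosine and NAD were followed in CD8+ T cells of lupus-prone mice. The genes were *Entpd1* (CD39), *Nt5e* (CD73), *Cd38*, *Ada*, *Adora2a*, *Art2b* and *P2rx7*, chosen by name as purine ectoenzymes and their partners out of 18992 genes listed in the deposited tables. All 7 were listed in every library. *Adora2a* and *P2rx7* encode receptors and *Ada* encodes an enzyme that is mostly cytosolic, so only *Entpd1*, *Nt5e*, *Cd38* and *Art2b* are ectoenzymes in the strict sense.

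The cells were PD-1+CD44+CD8+ T cells sorted from female NZB/W F1 mice, a cross that develops lupus nephritis with age. Spleen was taken at 12 weeks (12W spleen, before disease) and spleen and kidney at 28 weeks (28W spleen and 28W kidney, advanced nephritis). The labels name no transgene and no agent for any of the 3 groups. Kidney tissue was minced, digested with collagenase and passed over Percoll before the sort, and a digestion of spleen is not described. The 4 samples that the labels list for each group, with titles ending in L001 to L004, are pooled in the tables, so each group was 1 library without a replicate, and whether the 4 are lanes, captures or mice, and how many mice contributed, is not stated. In the text 12W and 28W stand for the splenic libraries and kidney for the third. The titles put the 28W spleen samples at 28 weeks, although an age field of those samples reads 12 weeks, and the titles were used.

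Extracellular ATP, which injured and activated cells release, is hydrolysed by CD39 to AMP, and CD73 converts AMP to adenosine. Adenosine binds the receptor ADORA2A, which raises cyclic AMP and dampens T cell receptor signalling, and adenosine deaminase removes it as inosine. On mouse T cells, ATP also opens the P2X7 channel directly, and the ADP-ribosyltransferase ART2.2 uses extracellular NAD to modify and open the same channel, while CD38 consumes NAD. CD39 and CD38 are familiar surface markers of chronically stimulated CD8+ T cells, and CD73 of resting and memory cells.

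The libraries held 6894 cells in 10 clusters (12W spleen), 6481 in 11 (28W spleen) and 7135 in 12 (kidney), with between 29937384 and 34742303 unique molecular identifiers (UMIs, single captured transcripts). Levels are given as UMIs per 1000000 UMIs of a library or cluster (CPM), with exact Poisson 95% intervals for the counting error alone, while the spread among animals is unknown. For a gene with 0 UMIs, 3 counts set a limit of 0.0864 to 0.1002 CPM in a whole library. Libraries shared 52 to 66 cell barcodes by pair. *Cd8a* stood at 488 to 738 CPM, *Pdcd1* (PD-1) at 34.7 to 115 and *Cd44* at 31.4 to 74.3, and the T cell genes *Cd3e*, *Cd3d*, *Cd8a*, *Cd8b1* and *Trac* had UMIs in every cluster. In a pooled library, fewer cells with a transcript and less of it per cell cannot be told apart. Cluster numbers belong to 1 library each and do not match between libraries. The clusters were made from the same counts, so differences between them are descriptions. In 7 of 33 clusters, summed markers of B cells, myeloid cells, kidney tubule or endothelium were at least 5 times the library median and at least 300 CPM, a rule set after the values were seen: cluster 3 of 12W spleen, clusters 8 and 10 of 28W spleen and clusters 2, 7, 8 and 12 of kidney. Of the 33 clusters, 6 averaged under 2000 UMIs per cell, and 2 of these were among the 7. Red cell genes summed to 37158 CPM in cluster 3 of 12W and 40824 CPM in cluster 8 of 28W, and plasma cell genes to 15259 CPM in cluster 2 of the kidney.

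*Nt5e* was the member that moved most with age and *Entpd1* and *Cd38* were those that moved most with organ. From 12W to 28W spleen, *Nt5e* was at least 2-fold higher and no member was at least 2-fold lower on the log2 scale with a pseudocount of 1 CPM. Over all 11253 genes with at least 50 UMIs in this comparison, 1.98% were at least 2-fold higher and 1.03% at least 2-fold lower. From 28W spleen to kidney, *Entpd1* and *Cd38* were at least 2-fold higher and no member was at least 2-fold lower, against 8.67% higher and 1.36% lower over 11758 genes. At 1.5-fold, *Entpd1* joined *Nt5e* among the higher genes and *Ada* and *Art2b* were lower with age, where 5.16% of all genes were higher and 4.19% lower. With organ, *Ada* joined the higher genes at 1.5-fold and *Nt5e* and *Art2b* were lower, where 15.7% of all genes were higher and 4.53% lower. The median log2 ratio of the 7 members was -0.32 with age and 0.53 with organ, beside -0.09 and 0.09 over all genes tested. All 14 counting intervals of the members' fold changes left out 1, which compares these libraries and not the conditions, since no library had a replicate. The age and organ comparisons share the 28W spleen library, so they are not independent of each other.

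**Figure D1:**
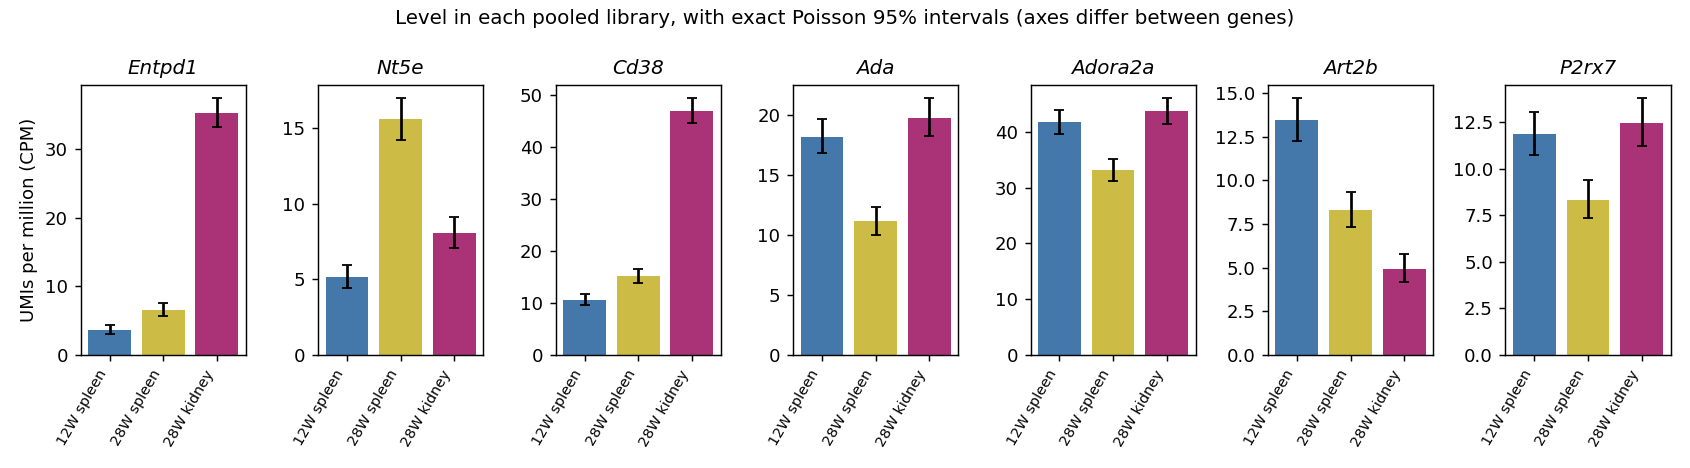
Level of each member in the 3 pooled libraries in UMIs per 1000000 (CPM, linear axis from 0, scaled separately for each gene), with exact Poisson 95% intervals as bars. *Entpd1* and *Cd38* are highest in kidney at 35.2 and 47.0 CPM, *Nt5e* is highest at 28W at 15.6 CPM, and *Art2b* is lower in each later library, at 13.4, 8.28 and 4.94 CPM.

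*Entpd1* encodes CD39, the ectonucleotidase that starts the path from ATP to adenosine. Its gene lies on chromosome 19 of GRCm38, from 40612366 to 40741602 on the plus strand. The libraries held 128, 210 and 1055 *Entpd1* UMIs, or 3.68 CPM (3.07 to 4.38) at 12W, 6.56 CPM (5.70 to 7.51) at 28W and 35.2 CPM (33.1 to 37.4) in kidney. The level was 1.78-fold higher in 28W than at 12W (1.42 to 2.24) and 5.37-fold higher in kidney than at 28W (4.63 to 6.26). The corresponding log2 ratios were 0.69 and 2.26.

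Within the kidney, *Entpd1* was uneven. Cluster levels ran from 6.02 CPM in cluster 5 (3.20 to 10.3) over a median of 33.7 to 68.4 CPM in cluster 12 (53.4 to 86.2). Cluster 12 was the cluster with myeloid genes, whose 8 markers summed to 11158 CPM there, and its *Lyz2* level was 3170 CPM. Endothelial genes were raised there too, at 382 CPM beside a median of 32.0 over kidney clusters. CD39 is abundant on macrophages, but which cells gave the *Entpd1* UMIs of cluster 12 was not tested. Cluster 12 supplied 6.73% of the kidney's *Entpd1* UMIs. Clusters 6, 11 and 1, at 56.9, 56.9 and 50.3 CPM, had no raised markers of other cells apart from red cell genes in cluster 11. Cluster 1 alone supplied 24.4% of the kidney's *Entpd1* UMIs and cluster 11 another 22.1%. Without the 4 kidney and 2 splenic clusters with raised markers of other cells, 870 and 180 UMIs remained, at 36.8 and 5.82 CPM, and the log2 ratio was 2.47.

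In spleen, the highest *Entpd1* level at 28 weeks was 36.1 CPM in cluster 10 (23.4 to 53.3), in which B cell genes summed to 4554 CPM and myeloid genes to 1846 CPM. Cluster 2 of 28W spleen stood at 16.0 CPM and supplied 36.2% of that library's *Entpd1* UMIs. Leaving cluster 2 out lowered the log2 ratio with age to 0.34 and raised the one with organ to 2.62. At 12 weeks, cluster levels ran from 0.602 CPM in cluster 7 to 14.04 in cluster 8, each on fewer than 5 UMIs. Of 12 kidney clusters, 6 lay above every cluster of 28W spleen, and 4 of 8 lay above all 9 once clusters with other markers were left out.

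RefSeq gives *Entpd1* 2 start sites in GRCm38.p6. The 250 bases before each are printed because this was the member with the largest difference between organs. Capitals mark matches, on either strand, to the AP-1 motif TGANTCA and to the cyclic AMP core site TGACG, from 6 motifs searched after the values were seen.
Entpd1 first start, chr19:40612116-40612365, plus strand: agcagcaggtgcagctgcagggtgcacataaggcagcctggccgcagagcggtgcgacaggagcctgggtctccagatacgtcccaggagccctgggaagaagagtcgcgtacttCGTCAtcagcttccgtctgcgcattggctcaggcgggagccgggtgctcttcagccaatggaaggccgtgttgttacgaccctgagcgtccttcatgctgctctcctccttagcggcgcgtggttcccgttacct
Entpd1 second start, chr19:40659520-40659769, plus strand: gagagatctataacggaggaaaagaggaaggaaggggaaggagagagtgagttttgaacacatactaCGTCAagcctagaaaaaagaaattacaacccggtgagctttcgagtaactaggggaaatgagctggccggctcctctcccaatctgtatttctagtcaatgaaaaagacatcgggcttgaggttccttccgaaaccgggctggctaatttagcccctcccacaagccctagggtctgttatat
Each window held 1 cyclic AMP core site, at -135 and -183 from the start, and none held the AP-1 motif. The CCAAT box (CCAAT) was found at 2 places in the first window and 1 in the second. The core site occurs in 17.8% of 32841 windows of the same length and the CCAAT box in 33.9%, and a match is not a binding site.

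*Nt5e* encodes CD73, a GPI-anchored 5′-nucleotidase that converts AMP to adenosine and so acts after CD39. Its gene lies on chromosome 9, from 88327197 to 88372092 on the plus strand. There were 179 UMIs at 12W (5.15 CPM, 4.43 to 5.96), 499 at 28W (15.6 CPM, 14.2 to 17.0) and 241 in kidney (8.05 CPM, 7.07 to 9.13). The middle library was thus the high one, unlike for *Entpd1*. *Nt5e* was 3.02-fold higher in 28W than at 12W (2.54 to 3.61, log2 ratio 1.43) and 1.94-fold lower in kidney than at 28W (1.66 to 2.27, log2 ratio -0.87).

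At 28 weeks the splenic *Nt5e* level was spread over many clusters. It ran from 5.74 CPM in cluster 6 (4.04 to 7.91) over a median of 16.0 to 36.1 CPM in cluster 11 (17.3 to 66.4), and clusters 4 and 5, at 30.6 and 29.6 CPM, supplied 21.8% and 20.8% of the UMIs. At 12 weeks, by contrast, cluster 2 alone supplied 40.2% of the UMIs at 18.6 CPM, and cluster 10 had 1 UMI in 3012471. Without cluster 2 of 12W spleen the log2 ratio with age was 1.89. In kidney, levels ran from 1.95 CPM in cluster 11 to 23.2 in cluster 10 (13.8 to 36.7). No kidney cluster lay above the highest cluster of 28W spleen, and 6 of 12 lay below every cluster of it.

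*Entpd1* and *Nt5e* moved apart in the kidney. For every *Nt5e* UMI there were 0.715 *Entpd1* UMIs at 12W (0.565 to 0.902), 0.421 at 28W (0.356 to 0.495) and 4.38 in kidney (3.80 to 5.06). This index serves to compare libraries and clusters, not the abundance of both transcripts, since capture can differ between genes. Left without clusters with other cells' markers, it was 0.663, 0.370 and 4.35 in the same order. Within the kidney the index ran from 0.277 in cluster 5 to 29.1 in cluster 11 (14.5 to 68.3). Cluster 5 held 13 *Entpd1* and 47 *Nt5e* UMIs, cluster 11 held 233 and 8. In 28W spleen it ran from 0.125 in cluster 5 to 6.25 in the B cell-marked cluster 10, and at 12W from 0.333 in cluster 6 to 2.09 in cluster 5.

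**Figure D2:**
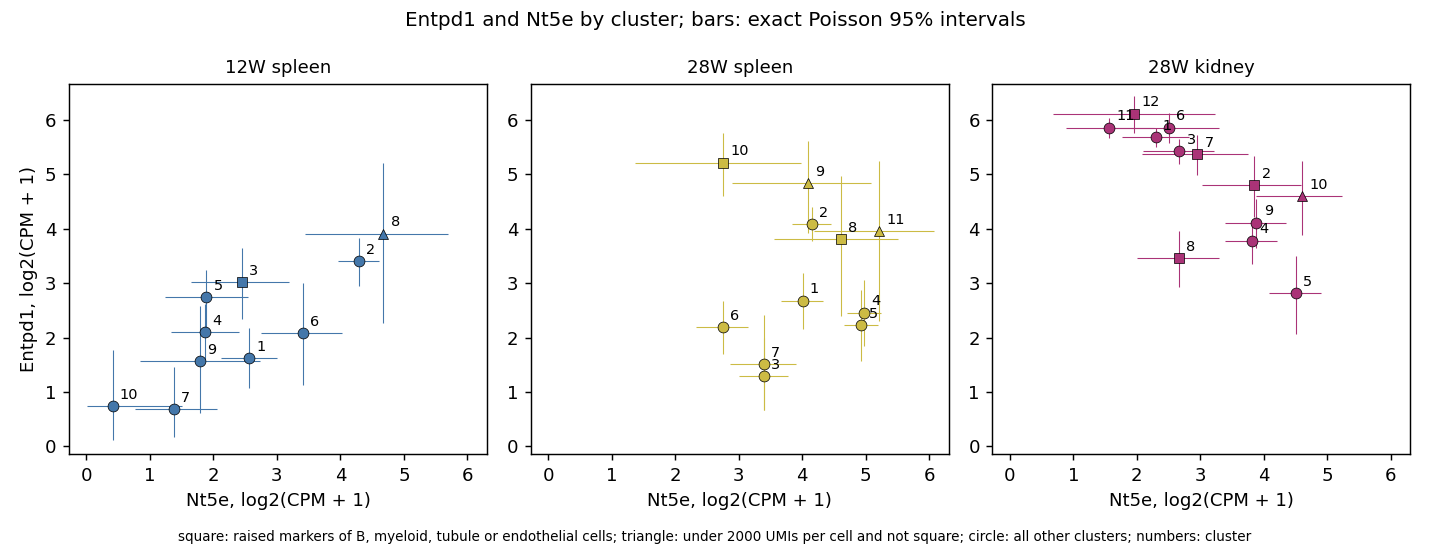
*Nt5e* (horizontal) against *Entpd1* (vertical) in each cluster on the log2(CPM + 1) scale, 1 panel per library, with exact Poisson 95% intervals as bars. Squares are clusters with raised markers of other cells (shallow ones included), triangles other clusters under 2000 UMIs per cell, circles all remaining clusters, and numbers the deposited clusters. The points run upward at 12W (r = 0.83), show no slope at 28W (r = 0.08) and run downward in kidney (r = -0.73).

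Across clusters, the correlation of *Entpd1* with *Nt5e* on the log2(CPM + 1) scale was 0.83 over 10 clusters of 12W spleen, 0.08 over 11 of 28W spleen and -0.73 over 12 of kidney. Spearman's rho was 0.81, 0.21 and -0.74. Clusters of a library share 1 preparation and differ in depth, so these values are descriptions, and the difference between them was not tested. Leaving out the clusters with other cells' markers gave 0.86, 0.41 and -0.86, and leaving out those under 2000 UMIs per cell gave 0.74, -0.17 and -0.83. The value for 28W spleen thus changed sign with the clusters used, whereas the other two kept theirs.

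*Ada* encodes adenosine deaminase, which converts adenosine to inosine inside cells. Its gene lies on chromosome 2, from 163726584 to 163750239 on the minus strand. The libraries held 631, 356 and 591 UMIs, or 18.2 CPM (16.8 to 19.6) at 12W, 11.1 CPM (9.99 to 12.3) at 28W and 19.7 CPM (18.2 to 21.4) in kidney. The 28W spleen library was the low one. *Ada* was 1.63-fold lower in 28W than at 12W (1.43 to 1.87, log2 ratio -0.66) and 1.78-fold higher in kidney than at 28W (1.55 to 2.03, log2 ratio 0.78). Cluster 6 of 28W spleen supplied 33.7% of that library's *Ada* UMIs. Without it the log2 ratios were -0.91 with age and 1.02 with organ, the latter past 2-fold.

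Across clusters *Ada* tended to be lower where *Nt5e* was higher. The correlation of both genes across clusters was -0.85 at 12W, -0.66 at 28W and -0.80 in kidney, and -0.75 over all 33 clusters with each library centred on its own mean. In 28W spleen, for example, clusters 4 and 5 had *Ada* at 4.49 and 5.40 CPM beside the *Nt5e* levels of 30.6 and 29.6 CPM, and cluster 6 had *Ada* at 18.6 CPM beside *Nt5e* at 5.74. In kidney, cluster 5 had the lowest *Ada* level, 8.80 CPM (5.30 to 13.7), and the second highest *Nt5e* level, 21.8 CPM. The clusters with the highest *Nt5e* levels were shallow and stood near the median for *Ada* in both libraries. Cluster 11 of 28W had *Ada* at 10.8 CPM on 3 UMIs, beside a median of 10.4, and cluster 10 of the kidney at 16.8 CPM on 13 UMIs, beside 17.3.

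**Figure D3:**
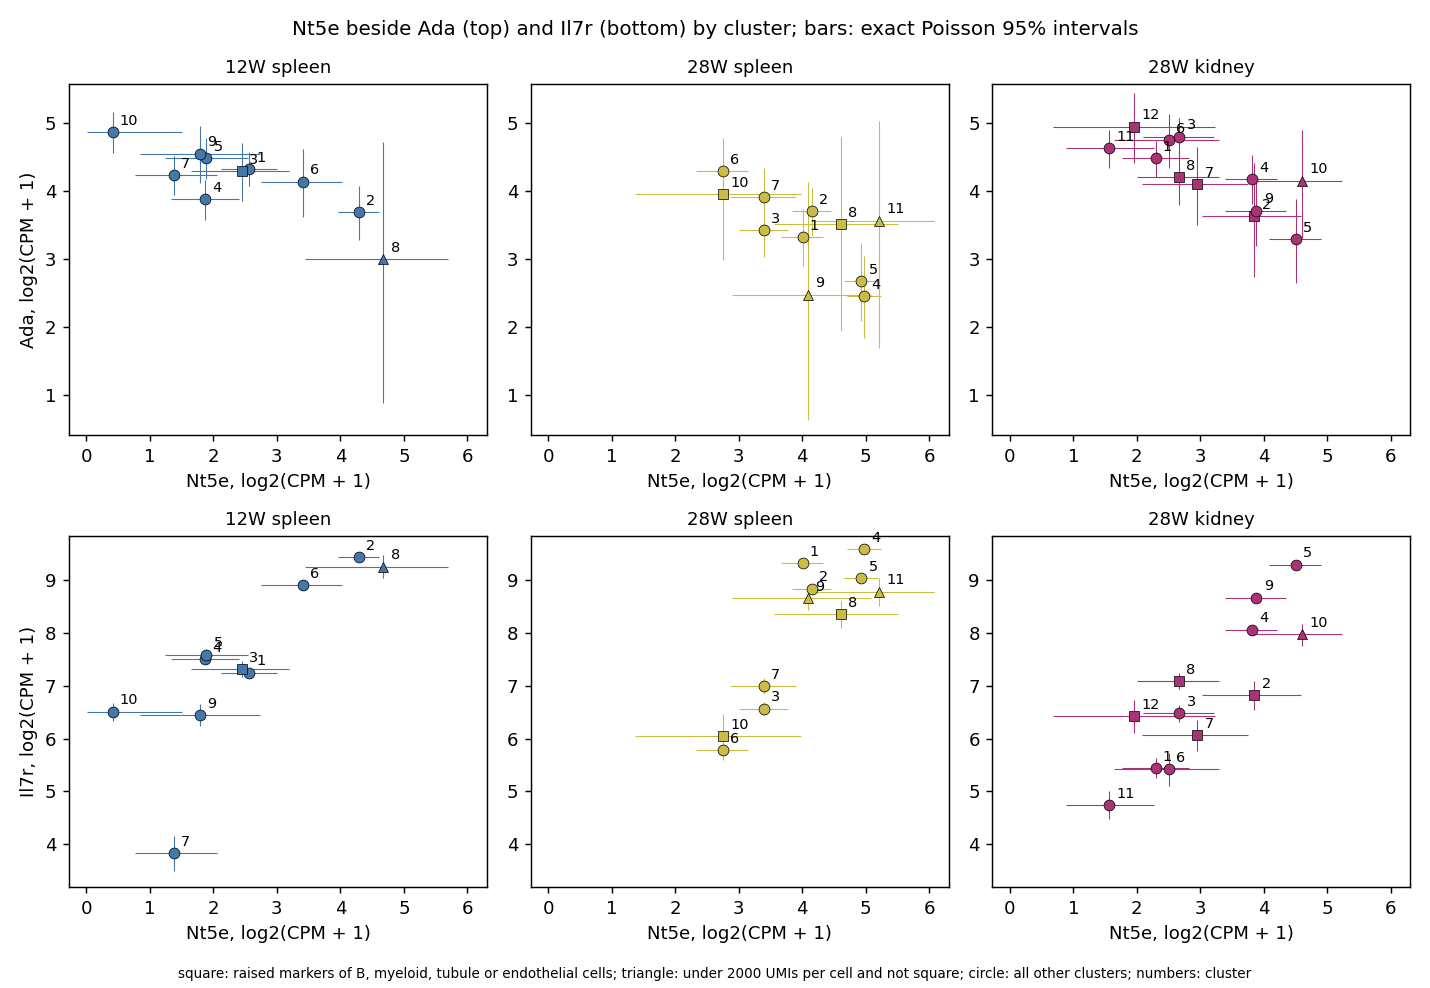
*Nt5e* (horizontal) against *Ada* (top row) and against *Il7r*, the interleukin-7 receptor chain of resting and memory T cells (bottom row), in each cluster on the log2(CPM + 1) scale with exact Poisson 95% intervals. Symbols are squares for clusters with raised markers of other cells, triangles for other clusters under 2000 UMIs per cell and circles for the rest. The points fall from left to right in every top panel (r from -0.85 to -0.66) and rise in every bottom panel (r from 0.79 to 0.88).

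*Adora2a* encodes ADORA2A, the main adenosine receptor of T cells. Its gene lies on chromosome 10, from 75316877 to 75334784 on the plus strand. It had 1449, 1060 and 1307 UMIs, or 41.7 CPM (39.6 to 43.9) at 12W, 33.1 CPM (31.1 to 35.2) at 28W and 43.7 CPM (41.3 to 46.1) in kidney. The levels at 12W and kidney had overlapping intervals. *Adora2a* was 1.26-fold lower with age (1.16 to 1.37, log2 ratio -0.32) and 1.32-fold higher with organ (1.22 to 1.43, log2 ratio 0.39), and neither difference reached 1.5-fold. The difference with organ fell to a log2 ratio of 0.16 when UMIs were counted per cell. The highest cluster was 2.48-fold above the lowest at 12W, 3.15-fold at 28W and 3.07-fold in kidney, with intervals that did not overlap. Cluster levels ran from 24.6 to 60.8 CPM at 12W, from 21.1 to 66.4 at 28W and from 22.2 in the myeloid-marked cluster 12 to 67.9 in cluster 3 of the kidney. The highest at 12W was cluster 3, with raised markers of other cells. At 28W it was cluster 9, with 29 UMIs of *Adora2a* and a mean under 2000 UMIs per cell. Without marked clusters, levels ran from 24.6 to 56.6 CPM at 12W, from 21.1 to 66.4 at 28W and from 25.9 to 67.9 in kidney.

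*Cd38* encodes an ectoenzyme that hydrolyses NAD to ADP-ribose and cyclic ADP-ribose. The gene lies on chromosome 5, from 43868553 to 43912375 on the plus strand, and the antisense gene *Gm16015* overlaps it but was not listed in the tables. The libraries held 370, 486 and 1407 UMIs, or 10.6 CPM (9.59 to 11.8) at 12W, 15.2 CPM (13.9 to 16.6) at 28W and 47.0 CPM (44.6 to 49.5) in kidney. *Cd38* was 1.43-fold higher in 28W than at 12W (1.24 to 1.64, log2 ratio 0.47) and 3.10-fold higher in kidney than at 28W (2.79 to 3.44, log2 ratio 1.57).

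The *Cd38* level was high over most kidney clusters. Levels ran from 18.1 CPM in cluster 5 (12.8 to 24.7) over a median of 33.9 to 72.2 CPM in cluster 3 (63.8 to 81.4), with cluster 1 at 71.8. In 28W spleen the median cluster stood at 12.1 CPM, and cluster 10, the cluster with B cell genes, was at 82.4 CPM (62.4 to 107). CD38 is also abundant on B cells. That 1 cluster held 57 of the 486 UMIs. With it no kidney cluster lay above all splenic clusters. Without clusters with other cells' markers, 6 of 8 kidney clusters lay above all 9 of 28W spleen, whose highest was 29.9 CPM, and the log2 ratio was 1.79. Leaving out cluster 2 of 28W spleen lowered the log2 ratio with age to 0.22.

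*Entpd1* and *Cd38* varied together across clusters in all 3 libraries, at r = 0.83 at 12W, 0.64 at 28W and 0.58 in kidney, where Spearman's rho was 0.47. In kidney, clusters 1, 3 and 6 were high for both and cluster 5 was low for both. Cluster 12, the highest for *Entpd1*, stood below the median for *Cd38* at 32.7 CPM, and cluster 8, low for *Entpd1* at 9.99 CPM, stood above it at 40.3 CPM. Both had raised markers of other cells. Without clusters of this kind r was 0.82 at 12W, 0.64 at 28W and 0.80 in kidney.

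*Art2b* encodes ART2.2, a GPI-anchored enzyme that uses NAD to ADP-ribosylate surface proteins of T cells, P2X7 among them. The gene lies on chromosome 7, from 101576970 to 101585600 on the minus strand. *Art2a-ps*, a near-identical copy, had no row under that symbol, so how UMIs of both genes were assigned is uncertain. There were 467 UMIs at 12W (13.4 CPM, 12.3 to 14.7), 265 at 28W (8.28 CPM, 7.31 to 9.33) and 148 in kidney (4.94 CPM, 4.18 to 5.81). It was the only member that was lower in both comparisons, 1.62-fold with age (1.39 to 1.90, log2 ratio -0.64) and 1.67-fold with organ (1.36 to 2.06, log2 ratio -0.64). *Art2b* was highest in cluster 1 of 12W spleen at 24.2 CPM (20.5 to 28.3), cluster 3 of 28W spleen at 15.8 and cluster 3 of kidney at 10.7. Its lowest levels were 4.01 CPM in cluster 7, 2.53 in cluster 4 and 1.39 in cluster 5 of the same libraries. Leaving out cluster 1 of 12W spleen, which supplied 32.5% of its UMIs, brought the log2 ratio with age to -0.38.

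*P2rx7* encodes the ATP-gated P2X7 channel, whose sustained opening can kill T cells. The gene lies on chromosome 5, from 122643911 to 122691432 on the plus strand. It had 411, 267 and 373 UMIs, or 11.8 CPM (10.7 to 13.03) at 12W, 8.34 CPM (7.37 to 9.40) at 28W and 12.5 CPM (11.2 to 13.8) in kidney. *P2rx7* was 1.42-fold lower with age (1.21 to 1.66, log2 ratio -0.46) and 1.49-fold higher with organ (1.27 to 1.76, log2 ratio 0.53).

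The spread of *P2rx7* between clusters was wide at 12 weeks. Cluster 8 of 12W spleen had 30 UMIs and 105 CPM (71.1 to 150), and its interval overlapped that of no other cluster of the library. The cluster was shallow, at 928 UMIs per cell, and its regulatory T cell markers summed to 832 CPM, of which *Ikzf2* made up 797 CPM and *Foxp3* 10.5 CPM. Cluster 7 of the same library had 1 UMI of *P2rx7* in 4986849, or 0.201 CPM (0.00508 to 1.12), at 13406 UMIs per cell. That cluster also had the lowest levels of *Art2b* and *Cd38* at 12W, 4.01 and 4.41 CPM, beside *Il7r* at 13.2 CPM. At 28 weeks *P2rx7* was highest in cluster 11 of spleen, 28.9 CPM on 8 UMIs, a shallow cluster with *Ikzf2* at 339 CPM. Plasma cell genes summed to 1087 CPM and cycling genes to 628 CPM in that cluster, which the rule on other cells' markers does not cover, and their part in its *P2rx7* and *Nt5e* levels was not tested. In kidney it was highest in the myeloid-marked cluster 12 at 34.7 CPM (24.3 to 48.0), followed by cluster 2, marked by plasma cell, B cell, tubule and red cell genes, at 32.0, and by cluster 3 at 21.5. Weighting clusters by cells rather than UMIs, which gives shallow clusters more weight, moved the log2 ratio with age from -0.46 to -0.81. Which clusters made this shift was not tested.

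*Art2b* and *P2rx7*, the enzyme and its target, varied together across clusters at r = 0.68 at 12W, 0.54 at 28W and 0.79 in kidney. This was not particular to the pair, since *Art2b* also ran with *Adora2a* at 0.43, 0.91 and 0.45 in the same order. As enzyme and target, *Art2b* and *P2rx7* have their windows of 250 bases printed, with the same motifs in capitals. These lie before the RefSeq start of *Art2b* and the first of 2 starts of *P2rx7*.
Art2b, chr7:101581162-101581411, minus strand: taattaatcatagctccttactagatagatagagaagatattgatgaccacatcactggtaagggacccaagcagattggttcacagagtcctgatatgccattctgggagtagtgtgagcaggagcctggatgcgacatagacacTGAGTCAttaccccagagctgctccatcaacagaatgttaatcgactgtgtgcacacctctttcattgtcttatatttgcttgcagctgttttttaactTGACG
P2rx7 first start, chr5:122643677-122643926, plus strand: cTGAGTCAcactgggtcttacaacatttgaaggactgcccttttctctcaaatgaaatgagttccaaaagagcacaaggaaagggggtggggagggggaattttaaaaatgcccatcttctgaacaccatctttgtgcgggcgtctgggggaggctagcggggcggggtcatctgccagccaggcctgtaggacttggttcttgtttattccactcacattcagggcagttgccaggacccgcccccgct
Both printed windows held 1 AP-1 match, at -104 and -249 from the start, a motif found in 6.75% of all windows. The window before the second start of *P2rx7*, which is not printed, held no match to any of the 6 motifs searched. The *Art2b* window also held a cyclic AMP core site at -5. By the GENCODE coordinates the *Art2b* window lies inside the gene, with 18 of its 250 bases in exons, against 16 for the printed *P2rx7* window. The GC box (GGGCGG) was found at 2 places before the first start of *P2rx7*, the first at -90, and not before *Art2b*. It occurs in 32.7% of windows. RefSeq windows were found for 6 of the 7 members.

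**Figure D4:**
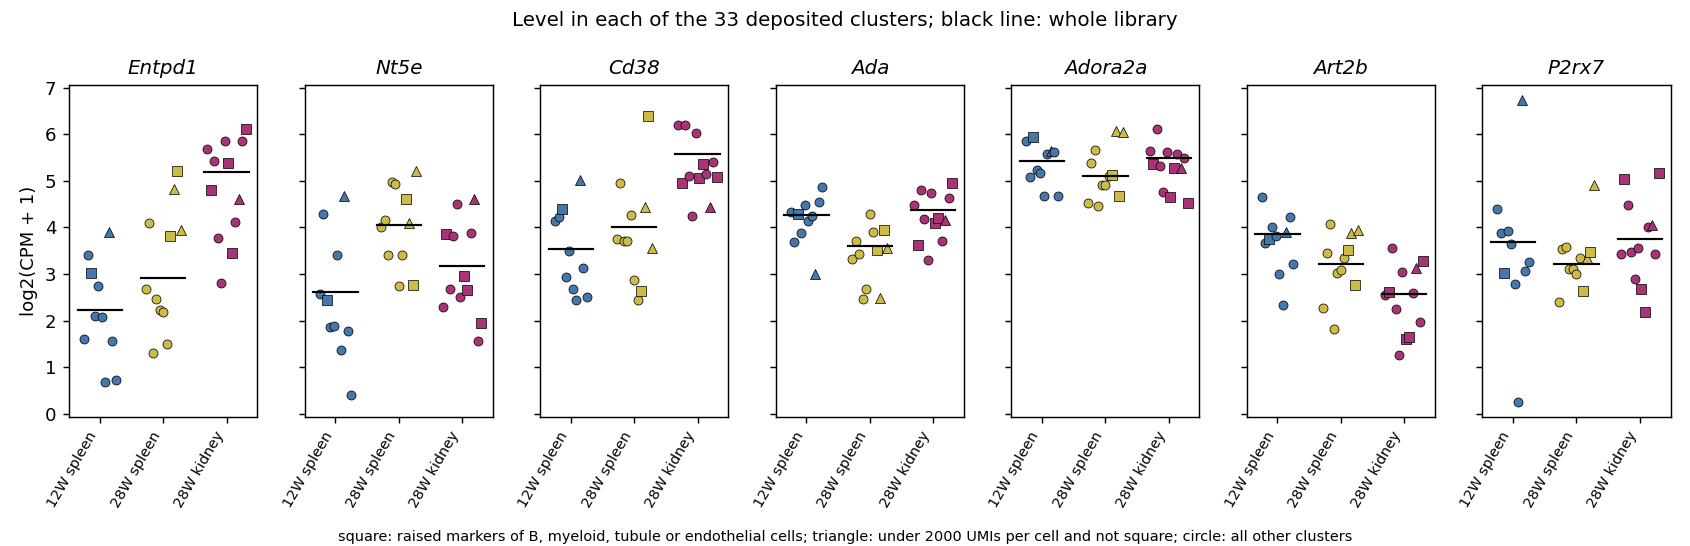
Level of each member in each of the 33 clusters on the log2(CPM + 1) scale, by library, with the level of the whole library as a black line. Squares mark clusters with raised markers of other cells, triangles other clusters under 2000 UMIs per cell, and circles the rest. *Entpd1* spans from 6.02 to 68.4 CPM in kidney, *Adora2a* spans from 22.2 to 67.9 CPM there, and *P2rx7* spans from 0.201 to 105 CPM at 12W.

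The order of clusters was seldom fixed by the counts. Of 210 pairs of neighbouring clusters, over the 7 members and 3 libraries, 205 had overlapping intervals. Exceptions included *Cd38* in cluster 10 of 28W spleen and *Adora2a* in cluster 3 of the kidney, whose intervals overlapped that of no other cluster of their library.

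The cluster with the highest cycling gene level had less *Nt5e* than the rest of its library in all 3 libraries, but other clusters with raised cycling genes did not all share this. The summed level of *Mki67*, *Top2a*, *Stmn1*, *Birc5* and *Pclaf* was highest in cluster 10 of 12W spleen (3573 CPM), cluster 6 of 28W spleen (1576 CPM) and cluster 11 of kidney (4532 CPM). *Nt5e* stood there at 0.332, 5.74 and 1.95 CPM, against 5.61, 18.1 and 9.02 CPM in the rest of each library. Cycling genes were also raised, at lower sums, in cluster 8 of 12W (716 CPM), cluster 11 of 28W (628 CPM) and cluster 12 of the kidney (522 CPM). Of these, clusters 8 and 11 had the highest *Nt5e* levels of their libraries, 24.6 CPM on 7 UMIs and 36.1 CPM on 10 UMIs, and kidney cluster 12 stood at 2.89 CPM on 3 UMIs. *Entpd1* was likewise low in clusters 10 and 6 of the spleens, at 0.664 against 3.97 CPM at 12 weeks and 3.57 against 7.31 CPM at 28 weeks. In the kidney it was high, at 56.9 CPM (49.8 to 64.7) against 31.8 (29.7 to 34.1). *Ada* was higher in the same clusters of both spleens, at 28.2 (22.5 to 34.9) against 17.2 CPM and 18.6 (15.4 to 22.3) against 9.23 CPM. In kidney its intervals overlapped, at 23.7 (19.2 to 28.9) against 19.1 CPM (17.5 to 20.9). The 3 clusters with the highest cycling sums averaged 14345, 12209 and 11404 UMIs per cell, and red cell genes summed to 1809 CPM in the one of the kidney. The part of depth and of red cell RNA in these values was not tested.

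Clusters with raised markers of other cells held 6.49% of all UMIs at 12W, 3.36% at 28W and 21.0% in kidney. Their share of the members' UMIs in kidney was near that level, from 15.5% (*Adora2a* and *Art2b*) to 22.8% (*P2rx7*), and 17.5% for *Entpd1* and 15.9% for *Cd38*. In 28W spleen they held 14.3% of *Entpd1* and 12.1% of *Cd38* UMIs, above their share of all UMIs. The same held in 12W spleen, at 12.5% of *Entpd1* and 12.2% of *Cd38* UMIs. The B cell list ran from 86.8 to 1148 CPM at 12W clusters, from 153 to 4554 at 28W and from 110 to 2973 in kidney. The myeloid list ran from 8.75 to 395, from 7.73 to 1846 and from 11.6 to 11158 CPM. Tubule genes reached 3019 CPM in cluster 7 of the kidney and at most 13.04 CPM in spleen. Leaving these clusters out kept the sign of all 14 member log2 ratios and the same 3 calls at 2-fold.

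Of the genes fixed for comparison, *Il7r* was most like *Nt5e*, at r = 0.79, 0.88 and 0.86 at 12W, 28W spleen and kidney. It stood at 213, 348 and 161 CPM in the libraries, thus highest where *Nt5e* was highest. *Entpd1* ran with *Il7r* at 12W (r = 0.80) and against it in kidney (r = -0.85). In kidney *Entpd1* also ran against *Lef1* (r = -0.86), a gene of less differentiated T cells. *Havcr2*, which encodes the inhibitory receptor TIM-3, ran with *Entpd1* at 0.72, 0.70 and 0.68, but had only 20, 30 and 185 UMIs in the libraries and was highest in the myeloid-marked cluster 12 of the kidney. *Cxcr6*, a chemokine receptor of tissue T cells, stood at 46.5 CPM in 28W and 478 CPM in kidney. Across clusters it ran with *Entpd1* at 0.58, 0.12 and 0.49, and at 0.90, 0.92 and 0.67 without clusters with other cells' markers. *Adora2a* ran with *Tox*, a transcription factor of chronically stimulated T cells, at 0.59, 0.69 and 0.83.

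By likeness over all 33 clusters, with each library centred on its own mean and among 2973 genes, the 5 genes most like each member were taken, of which 4 are named for *Art2b* and for *P2rx7*. For *Nt5e* these were *Il7r* (r = 0.83), *Thada*, *Ikbkb*, *Sidt1* and *2810474O19Rik*. *Entpd1* was most like *Fgl2* (0.77), *Rab14*, *Arsb*, *Scamp2* and *Ctsb*. *Cd38* was nearest to *Grb2* (0.75), *Tmem123*, *Spop*, *Rbm7* and *Fgl2*. The 5 of *Ada* were *Commd1* (0.74), *Vdac3*, *Ap2s1*, *Ufc1* and *Csrp1*. *Adora2a* had *Tcf3* (0.78), *Eomes*, *Ankrd10*, *Cdk5rap3* and *Gnai3*. For *Art2b* the list held *Tm6sf1* (0.79), *Fermt3*, *Il10ra* and *Vav1*. *P2rx7* was followed by *Rin3* (0.88), *Man2b1*, *Dennd1c* and *Fyb*. The lists depended on the clusters and the measure. *Ikbkb*, *Il7r* and *Sidt1* for *Nt5e* and 1 gene each for *Entpd1* (*Fgl2*), *Ada* (*Commd1*), *Adora2a* (*Eomes*), *Art2b* (*Tm6sf1*) and *P2rx7* (*Fyb*) were in all 3 lists computed, and none was for *Cd38*.

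Other genes of the purine pathway included some with organ differences as large as those of the members. Of 73 in the lists, 66 were listed in the tables. With age and the pseudocount of 1 CPM, 0 of 42 genes with at least 50 UMIs were past 2-fold in either direction. Their median log2 ratio was -0.20, and 1.98% of all genes were higher and 1.03% lower. Without the pseudocount, the low genes *Art3* and *Enpp2* were 2.88-fold (1.90 to 4.47) and 2.68-fold (1.49 to 5.02) higher. *Ampd3*, also a low gene, was 2.82-fold lower (1.60 to 5.20). At 1.5-fold with the pseudocount 2 were higher and 4 lower, beside 5.16% and 4.19% over all genes. The lower ones included *Alpl*, an alkaline phosphatase that also hydrolyses AMP, at 20.0 and 10.3 CPM. With organ, 3 of 44 were at least 2-fold higher and 1 at least 2-fold lower, with a median of 0.13, beside the 8.67% and 1.36% over all genes. *Crem*, a transcription factor induced by cyclic AMP, was at 7.56 and 17.7 CPM (2.34-fold, 2.01 to 2.74, log2 ratio 1.13). *P2ry6*, a UDP receptor, had 14 and 226 UMIs (log2 ratio 2.57). *Enpp2*, which encodes the lysophospholipase D autotaxin, was at 1.31 and 4.58 CPM (log2 ratio 1.27). *Art4*, another ADP-ribosyltransferase family member, was at 6.09 and 1.24 CPM (4.93-fold lower, 3.45 to 7.21, log2 ratio -1.66).

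The 3 higher genes rested in part on clusters with markers of other cells. The myeloid-marked cluster 12 held 95.6% of the kidney's *P2ry6* UMIs, the tubule-marked cluster 7 held 52.6% of *Enpp2* and the B cell-marked cluster 8 held 23.4% of *Crem*. Without clusters of this kind, *P2ry6* had 10 and 0 UMIs in kidney and spleen, *Enpp2* stood at 1.65 and 1.36 CPM and *Crem* at 15.1 and 7.56 CPM (log2 ratio 0.91). *P2ry6* was then under the minimum of 50 UMIs and had no finite ratio, and *Enpp2* and *Crem* were not past 2-fold. Among lower genes, *Art4* had a log2 ratio of -1.55 without these clusters, and 2 more passed 2-fold. *Alpl* turned from a log2 ratio of 0.14 to -1.44, with 76 UMIs in kidney and 323 at 28W. *Adk*, which encodes adenosine kinase, went from -0.82 to -1.06.

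By role, the most abundant nucleotide hydrolase besides the members was *Entpd5*, at 25.9, 23.8 and 27.2 CPM at 12W, 28W spleen and kidney. *Nadk*, which makes NADP, stood at 52.9, 47.2 and 48.2 CPM and the cytosolic nucleotidase gene *Nt5c* at 218, 191 and 183 CPM. Adenosine receptors other than ADORA2A had few UMIs. *Adora3* had 2, 1 and 22 UMIs in the libraries and *Adora2b* had 0, 3 and 5. The ATP-gated channel *P2rx4* stood at 11.9, 8.99 and 7.72 CPM, the receptor gene *P2ry10* at 12.1, 15.3 and 18.9 CPM and the ATP release channel *Panx1* at 59.4, 58.0 and 64.1 CPM. *Gnas*, which encodes the stimulatory G protein subunit that couples ADORA2A to cyclic AMP, stood at 646, 540 and 710 CPM.

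**Figure D5:**
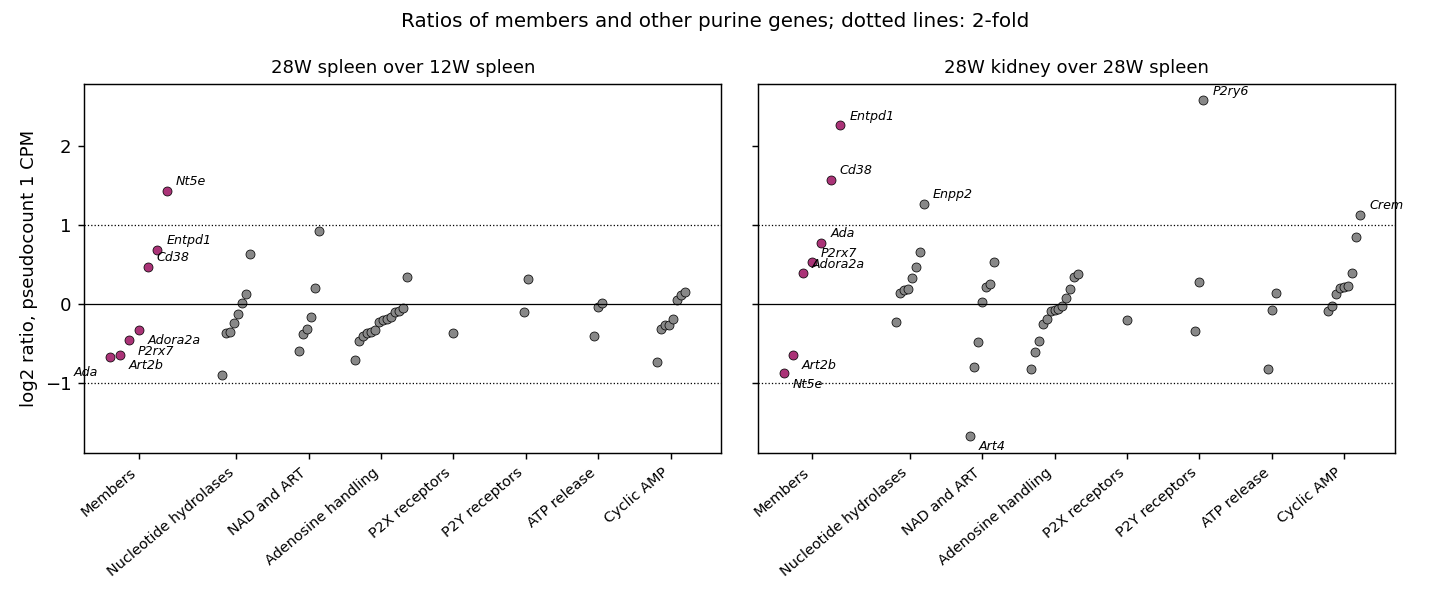
Log2 ratio, with a pseudocount of 1 CPM, of each member (purple) and of each other purine gene with at least 50 UMIs (grey, by list), for 28W spleen over 12W spleen (left) and kidney over 28W spleen (right). Dotted lines are 2-fold and named grey points lie past them. *Nt5e* is past 2-fold on the left, and *Entpd1*, *Cd38*, *P2ry6*, *Enpp2* and *Crem* above and *Art4* below on the right.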

How the data were processed

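Single-cell RNA sequencing of sorted PD-1+CD44+CD8+ T cells was made with 10x Genomics 5′ v2 chemistry on a HiSeq2500. Per the labels, the submitters' processing notes name Cell Ranger 2.1.1 and R 3.6.1, while the methods name a Cell Ranger vdj pipeline and GRCm38. The annotation release and the cell filters are not given in the sources used here. For each of 3 libraries the authors deposited the cluster of every barcode and, per gene and cluster, a mean count (a score scaled to the library's median UMI count per cell), a log2 fold change against the library's other cells and an adjusted p-value. The deposited log2 and p-value columns hold the authors' own comparisons and were not used. How doublets were treated is not given in the sources used here, and no doublet caller could be run on cluster means.

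Each mean count column is a whole multiple of 1 step, the value of 1 UMI. Division by it gave whole UMIs for 100% of values (tolerance 0.001). The tables were normalized separately, so each library's UMIs were added up over its clusters and scaled to 1000000 (CPM). The later spleen was divided by the earlier one (age) and kidney by the spleen of that age (organ), as log2 after adding 1 CPM, which understates changes of low genes, with at least 50 UMIs over both libraries. Intervals are exact Poisson for levels and exact conditional binomial for fold changes and UMI ratios, both at 95%. With 1 library per group no test was made and no p is given. A gene was called at 2-fold. Scripts were tested on simulated data.

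Genes named are the 7 members, pathway genes past 2-fold, the most abundant gene of each pathway list, the 5 genes most alike each member (Pearson r over 33 clusters, candidates at 50 CPM or more), companion genes and markers. Some genes that this rule names are not reported here. *Alpl*, *Adora2b* and the clusters singled out were chosen after their values were seen. Members and lists were chosen with earlier results of these data known. Coordinates are from GENCODE M21 (GRCm38) and promoter windows from RefSeq (GRCm38.p6). Alternatives were 2 other scalings, weighting by cells, other pseudocounts, minimums and folds, and leaving out clusters. Added after seeing the data were UMIs per cell as a scale, leaving out clusters under 2000 UMIs per cell, and correlations without marked clusters. Analyses used Python 3.11.15, numpy 2.4.6, pandas 2.3.3, scipy 1.17.1 and matplotlib 3.10.9.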

Additional observations from a re-analysis of the deposited data

How the results depend on the processing

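All 14 member log2 ratios kept their sign under each of 11 alternatives. The calls of *Nt5e* with age and of *Entpd1* and *Cd38* with organ held under every alternative scale, pseudocount, minimum and left-out set of clusters, with log2 ratios from 1.02 to 1.89, 1.77 to 2.62 and 1.30 to 1.84. The count of members lower with organ went from 0 to 1 (*Nt5e*) with library totals that leave out T cell receptor, immunoglobulin, mitochondrial and ribosomal protein genes, and with UMIs per cell. At 1.5-fold the counts of members were 2 higher and 2 lower with age and 2 lower with organ. The count of other purine genes higher with age went from 0 to 1 with the median gene ratio or the reduced library total (*Art3* in both), to 2 with a pseudocount of 0.1 CPM and to 2 at 1.5-fold. The count lower with age went from 0 to 1 with the pseudocount of 0.1 CPM and to 4 at 1.5-fold. With organ the 3 higher genes became 1 with a pseudocount of 5 CPM, 5 at 1.5-fold and 0 without clusters with markers of other cells, with or without those with red cell genes. They became 4 with weighting by cells or a pseudocount of 0.1 CPM. With UMIs per cell, which lost *Crem*, or a minimum of 200 UMIs, which lost *Enpp2*, they became 2. The 1 lower gene became 2 with the reduced library total or a pseudocount of 0.1 CPM, 0 with a pseudocount of 5 CPM, 3 without clusters with other cells' markers, with or without red cell ones, 3 with UMIs per cell and 5 at 1.5-fold. Of the 35 genes listed as most alike, 19 were shared with the lists by Spearman's rho and 11 with those without marked clusters. The causes of these shifts were not tested. No paired analysis was possible because the deposited tables pool the 4 samples of each group, which also kept samples from being left out in turn. With 1 library per group, depth limits the clusters most, where a member can rest on fewer than 5 UMIs.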

Other observations

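Among companion genes with no part in the purine pathway, *Itgae*, which encodes the integrin CD103 of tissue-resident T cells, stood at 21.2 CPM at 12W, 13.5 at 28W and 5.68 in kidney, an order like that of *Art2b*. Across clusters it ran with *P2rx7* at r = 0.73, 0.66 and 0.30 in these libraries, and at 0.54, -0.17 and 0.43 without clusters under 2000 UMIs per cell. *Pdcd1* was 34.7 CPM at 28W and 115 in kidney, and across clusters ran with *Adora2a* at 0.64, 0.64 and 0.40 in the same library order. *Mki67* stood at 38.3, 38.0 and 82.2 CPM. These are descriptions over 10, 11 and 12 clusters of 1 library each, with no test.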
